A study of Mus musculus with 9 samples.

Results

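The genes examined were 46 steroid receptors, receptor chaperones and transcriptional coregulators, followed in FVB MOE cells given an estrogen or a tamoxifen metabolite. They were found by gene symbol among the 23332 gene rows of the RNAseq tables. Of these genes, 45 stood under the listed symbol and Gper1 stood under its older name Gpr30. RNA was measured in 9 libraries, 3 for each of 3 conditions, and levels are given as FPKM, a fragment count divided by transcript length and by the library's total of mapped fragments. FVB MOE is a single clone of secretory epithelium from the oviduct of FVB mice, so all conditions share 1 clone and no other line was compared. All cells were kept for 48 h without hormone in medium with charcoal stripped serum and then treated for 24 h. The controls received 0.1% DMSO, the E2 cells 1 nM estradiol, and the 4OHT cells 100 nM 4-hydroxytamoxifen, so that the doses of the ligands differ. Nothing in the labels says whether same-condition libraries came from separate cultures, so p-values measure the spread between these libraries only.

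Estrogen receptors are ligand-activated transcription factors. Before ligand arrives they are held by an Hsp90 chaperone complex, and once bound to estradiol they settle on estrogen response elements in DNA and recruit coactivators, histone acetyltransferases and methyltransferases. Tamoxifen metabolites occupy the same pocket, and the receptor then binds corepressors in many cell types. The progesterone receptor gene Pgr and the coregulator gene Greb1 are long known estrogen-responsive genes, and the oviduct is a classical target of both hormones.

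The cell type label was checked against marker genes. Pax8, a transcription factor of secretory cells, lay between 105 and 150 FPKM, and the keratins Krt8 and Krt18 lay between 334 and 799 FPKM over the 9 libraries. Epcam, Cdh1 and Sox17 were under 1 FPKM in every library, with maxima of 0.138, 0.422 and 0.0174. The summed FPKM of the 11 secretory markers, Krt8 and Krt18 included, was 1499 to 1642 in DMSO, 2440 to 2650 in E2 and 1578 to 1758 in 4OHT. Over the 9 stromal and smooth muscle markers the sums were 954 to 1458, 1324 to 1767 and 1270 to 1559, nearly all of it Acta2, while Pdgfra, Col3a1, Lum, Des and Myh11 stayed under 1 FPKM. The sums of 8 ciliated cell markers were 421 to 548 in DMSO, 411 to 438 in E2 and 453 to 579 in 4OHT, mostly the tubulin gene Tubb4b. The 8 leukocyte and endothelial markers summed to between 7.09 and 11.1 FPKM in all libraries. With the replicate block described below, 6 of the 8 tested secretory markers were higher with E2 than with DMSO, the 4 keratins, Pax8 and Emx2. That was 75%, beside 10.4% of all rows higher and 4.63% lower. The remaining tested secretory markers, Pax2 and Ovgp1, did not pass. Of the 4 tested ciliated markers, Foxj1 was lower. Of the 4 tested stromal and smooth muscle markers, Cnn1 was lower and Dcn and Acta2 were higher. Of the 3 tested leukocyte and endothelial markers, Kdr was higher. The part of these markers in the results below was not tested.

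Replicate 1 stood apart for Esr1, Pgr and Greb1 in each condition. Its FPKM divided by the mean of the other two was 2.06 in DMSO, 1.85 in E2 and 2.101 in 4OHT for Esr1, and 7.62, 2.06 and 3.19 for Pgr. For Greb1 the corresponding ratios were 5.84, 1.98 and 3.78. Results for these genes are therefore given with and without replicate 1. For other members the ratios lay nearer to 1, at 1.51, 1.26 and 1.13 for Tfap2c and 1.20, 1.13 and 1.09 for Nr3c1. Those of Cited2 lay below 1, at 0.798, 0.754 and 0.845. Depth relative to DMSO replicate 1, read from the smallest FPKM, was between 0.821 and 1.18. Exact zeros also occurred in expressed genes, and 2 members were touched by them.

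Of the 46 members, 40 reached 1 FPKM or more in 3 or more libraries and were tested, and 6 were not. A change is written on the log2(FPKM + 1) scale, which makes changes of genes near 1 FPKM smaller than their FPKM ratio. The test was limma on all 9 libraries with Benjamini-Hochberg adjustment over the 11339 rows tested and a threshold of 0.05. It was run without and with the replicate number as a block. Same-numbered libraries deviated together, and differently numbered ones in opposite directions on average. The study's methods name no block, so both adjusted p are given.

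Without the block, none of the 40 members passed in any contrast. At an unadjusted p under 0.05 there were 4 members for E2 versus DMSO, 2 for 4OHT versus DMSO and 7 for E2 versus 4OHT (10%, 5% and 17.5%), beside 10.9%, 2.76% and 11.5% of all rows. Over all 11339 rows, 58 (0.512%), 0 (0%) and 18 (0.159%) passed. With the replicate block, 8 members passed for E2 versus DMSO, 20% of those tested against 15% of all rows. The 5 higher members were Esr1, Pgr, Nr3c1, Greb1 and Tfap2c, 12.5% against 10.4% of all rows that were higher. The 3 lower members were Kat2a, Carm1 and Prmt1, 7.5% against 4.63% of all rows that were lower. For E2 versus 4OHT, 12 members passed (30%, against 16.2% of all rows), of which the same 5 were higher (12.5%, against 8.63%) and 7 were lower (17.5%, against 7.6%). For 4OHT versus DMSO 0 members and 0 of all rows (0%) passed with the block, and 7 members (17.5%) and 1480 rows (13.1%) had an unadjusted p under 0.05. The median log2 difference of the 40 members was -0.03 for E2 versus DMSO, 0.01 for 4OHT versus DMSO and -0.01 for E2 versus 4OHT, beside -0.0027, 0.03 and -0.01 over all rows tested.

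**Figure D1:**
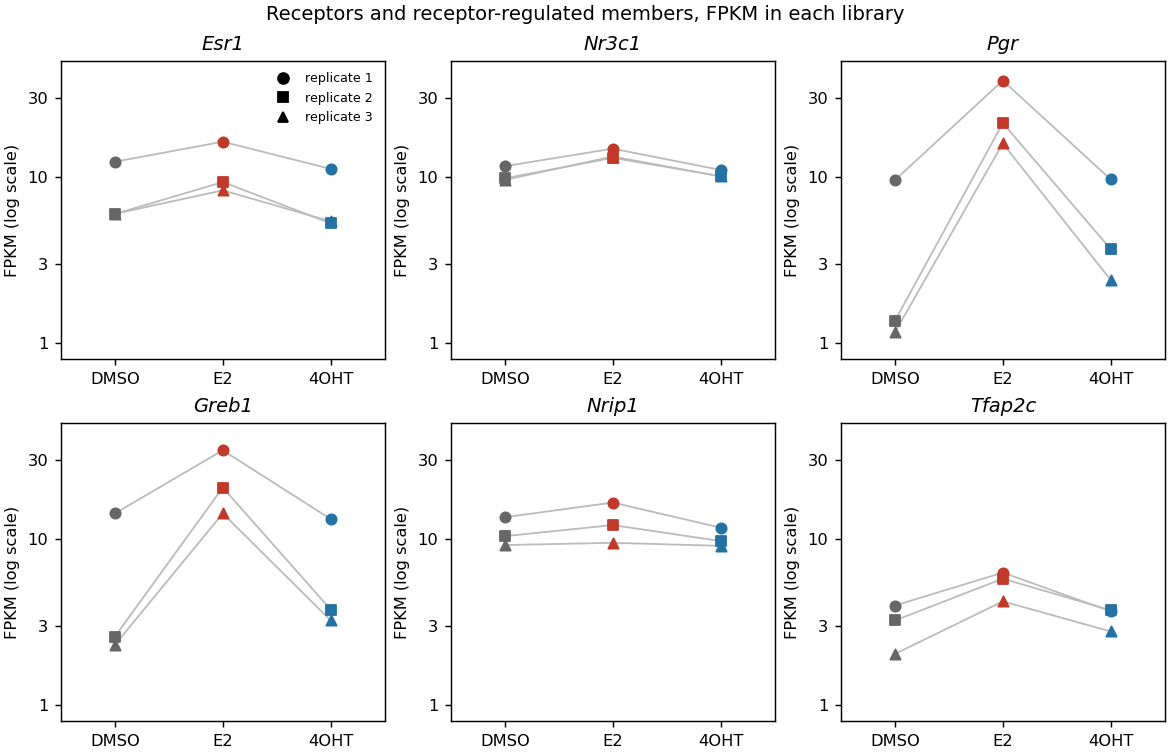
FPKM (log axis) of 6 members in each library, with grey lines joining the libraries of 1 replicate number across DMSO, E2 and 4OHT and a marker shape per replicate. All 6 are highest with E2 in all 3 replicates, and replicate 1 is the highest of its condition for Esr1, Nr3c1, Pgr, Greb1 and Nrip1.

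Among the estrogen receptors, transcripts of Esr1 were present and those of Esr2 and Gper1 were near the floor of the table. Esr1, which encodes estrogen receptor alpha, lies on chromosome 10 of GRCm38 from 4611593 to 5005614 on the plus strand. Its FPKM in replicates 1, 2 and 3 was 12.4, 5.98 and 5.995 in DMSO, 16.3, 9.32 and 8.31 in E2, and 11.2, 5.25 and 5.40 in 4OHT. Replicate 1 was high in every condition, so that the groups overlapped, yet E2 was above DMSO in each pair, by 1.32, 1.56 and 1.39 times. In bulk RNA, fewer cells that express a gene and less of its RNA per cell cannot be told apart. The mean was 8.11 ± 3.68 FPKM in DMSO, 11.3 ± 4.36 in E2 and 7.28 ± 3.38 in 4OHT (SD, n = 3). Its level in DMSO was above that of 34.8% of the rows tested.

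The log2 difference of Esr1 between E2 and DMSO was 0.45, with a standard error of 0.374 without the block and 0.0499 with it. Limma's adjusted p was 0.690 without the block and 0.00424 with it. The blocked call held in all 9 fits that left out 1 library. For any contrast, some of these fits drop a library of the condition not compared, which leaves the difference itself unchanged. Against 4OHT the log2 difference was 0.59, with an adjusted p of 0.530 without and 0.00308 with the block. Without replicate 1 of each condition the log2 difference from DMSO was 0.49, with an adjusted p of 0.0709 without the block and 0.0388 with it. With 4OHT, Esr1 was 0.905, 0.879 and 0.900 times DMSO in the pairs. This difference did not pass (log2 difference -0.14, adjusted p = 1.00 without and 0.376 with the block), and its 95% interval in the blocked fit ran from -0.26 to -0.02.

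Esr2, which encodes estrogen receptor beta, was read at 0.106, 0.102 and 0.122 FPKM in DMSO, 0.0926, 0.128 and 0.0798 in E2, and 0.0695, 0.113 and 0.130 in 4OHT. Gper1, which encodes a membrane receptor that answers to estrogens, was read at 0.150, 0.226 and 0.336 FPKM in DMSO, 0.192, 0.110 and 0.162 in E2, and 0.255, 0.161 and 0.261 in 4OHT. The conditions overlapped for both genes, and neither reached the level needed for the test. The lowest Esr1 value, 5.25 FPKM, lay above the highest of Esr2, 0.130 FPKM, and of Gper1, 0.336 FPKM.

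Pgr, which encodes the progesterone receptor, showed the largest difference with E2 among the tested members. Its FPKM was 9.58, 1.36 and 1.16 in DMSO, 38.1, 21.1 and 15.9 in E2, and 9.67, 3.67 and 2.39 in 4OHT. Every E2 library lay above every DMSO and every 4OHT library, and DMSO replicate 1 lay above the other two DMSO libraries. E2 was 3.98, 15.6 and 13.8 times DMSO in the 3 pairs, the smallest ratio being that of replicate 1, whose DMSO level was high. In FPKM the pairs differed by 28.6, 19.8 and 14.8, the largest difference being that of replicate 1.

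The log2 difference of Pgr was 2.70, with a standard error of 0.684 without the block and 0.244 with it. Its adjusted p was 0.212 without the block and 0.00253 with it (limma). Without replicate 1 the log2 difference was 3.10, and the adjusted p was 0.00757 without the block and 0.00225 with it. Against 4OHT the log2 difference was 2.15 (adjusted p = 0.366 without and 0.00641 with the block). The blocked calls held in all 9 fits with 1 library left out, in both contrasts. With 4OHT, Pgr was 1.01, 2.71 and 2.07 times DMSO in the pairs, and the log2 difference of 0.55 did not pass (adjusted p = 1.00 without and 0.394 with the block). The 95% interval of that difference in the blocked fit ran from -0.04 to 1.15.

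The bases upstream of Pgr and Greb1 are shown because these members had the largest ratios of mean FPKM between E2 and DMSO, 6.22 and 3.60, and because binding of the receptor near a gene is how the textbook estrogen response begins. The windows are the 250 bases before the most upstream start that RefSeq gives on GRCm38.p6, printed 5′ to 3′ on the gene's strand. They are chr9:8899583-8899832 on the plus strand for Pgr and chr12:16800887-16801136 on the minus strand for Greb1. Capitals mark the matches to any of 4 motifs: the palindromic estrogen response element, its single arm GGTCA, the GC box GGGCGG and the AP-1 site TGANTCA, each searched on both strands.
Pgr: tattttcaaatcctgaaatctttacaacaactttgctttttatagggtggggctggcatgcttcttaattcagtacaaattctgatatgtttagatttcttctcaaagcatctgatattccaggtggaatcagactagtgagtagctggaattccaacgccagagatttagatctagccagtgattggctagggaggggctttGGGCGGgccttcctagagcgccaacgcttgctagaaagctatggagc
Greb1: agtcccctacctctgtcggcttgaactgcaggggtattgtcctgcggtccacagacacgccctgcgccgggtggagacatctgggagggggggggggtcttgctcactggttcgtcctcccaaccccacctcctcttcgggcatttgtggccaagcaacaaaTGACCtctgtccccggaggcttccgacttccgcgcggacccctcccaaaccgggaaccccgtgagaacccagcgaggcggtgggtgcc
The only match upstream of Pgr was a GC box, 47 to 42 bases before the start, and the only match upstream of Greb1 was an arm in reverse orientation, 88 to 84 bases before it. The letters G and C made up 43.6% of the Pgr window and 65.2% of the Greb1 window, against a median of 52% over all 27025 windows of this length. Neither window held the palindrome, which spells GGTCA, 3 bases and TGACC, contains 2 arms and was found in 0.0629% of all windows. Single arms stood in 34.9% and GC boxes in 33% of all windows, and AP-1 sites in 6.85%. Of the members, 36 had a window in the table. None of them held the palindrome, 13 (36.1%) held an arm, 23 (63.9%) a GC box and 1 (2.78%) an AP-1 site. Some of these windows, among them those of Esr1, Ncoa6 and Fkbp5, lay inside the gene by its GENCODE coordinates. Their motif content is therefore not that of the bases before the gene.

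Greb1, a chromatin-bound cofactor of the estrogen receptor, followed a pattern like that of Pgr. Its FPKM was 14.3, 2.58 and 2.30 in DMSO, 34.3, 20.4 and 14.3 in E2, and 13.2, 3.76 and 3.23 in 4OHT. The E2 libraries lay above the DMSO libraries, although E2 replicate 3 (14.276 FPKM) was nearly level with DMSO replicate 1 (14.272 FPKM). E2 was 2.40, 7.91 and 6.20 times DMSO in the pairs. The log2 difference was 2.00, with a standard error of 0.693 without the block and 0.238 with it. The adjusted p was 0.357 without the block and 0.00525 with it (limma). Without replicate 1 the log2 difference was 2.40 and the adjusted p was 0.0116 and 0.00396.

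Against 4OHT, the log2 difference of Greb1 was 1.78 (adjusted p = 0.407 without and 0.00989 with the block). That blocked call was lost without 4OHT replicate 1 (0.0577) or 4OHT replicate 2 (0.0509). With 4OHT, Greb1 was 0.925, 1.45 and 1.40 times DMSO in the pairs. The log2 difference of 0.22 did not pass, and its 95% interval in the blocked fit ran from -0.36 to 0.80.

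Nrip1, which encodes RIP140, a corepressor that binds ligand-occupied nuclear receptors, was at 13.5, 10.4 and 9.20 FPKM in DMSO, 16.6, 12.1 and 9.49 in E2, and 11.7, 9.73 and 9.10 in 4OHT. E2 was above DMSO in each pair, by 1.23, 1.17 and 1.03 times, and the groups overlapped. The log2 difference of 0.17 did not pass (adjusted p = 0.778 without and 0.165 with the block), and the blocked interval ran from -0.01 to 0.35. Against 4OHT it was 0.27, with an adjusted p of 0.572 without and 0.0553 with the block, and of 0.0285 once exact zeros were taken as missing in the blocked fit.

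The other steroid receptors among the members were the glucocorticoid receptor Nr3c1 and the mineralocorticoid receptor Nr3c2. Nr3c1 was at 11.6, 9.82 and 9.60 FPKM in DMSO, 14.8, 13.0 and 13.3 in E2, and 11.0, 10.1 and 10.1 in 4OHT. All E2 libraries lay above all others, and E2 was 1.28, 1.33 and 1.38 times DMSO in the pairs. The log2 difference was 0.38, with a standard error of 0.0823 without and 0.0363 with the block (limma adjusted p = 0.138 and 0.00295). Against 4OHT it was 0.37 (adjusted p = 0.206 and 0.00439). The blocked calls of Nr3c1 held in all 9 fits with 1 library left out, in both contrasts. Without replicate 1 the adjusted p against DMSO was 0.0490 without and 0.0256 with the block, and against 4OHT 0.0958 and 0.0449. With 4OHT the log2 difference of Nr3c1 from DMSO was 0.01, with a blocked interval from -0.08 to 0.10. Nr3c2 lay between 0.571 and 0.763 FPKM in all libraries and was not tested.

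Of the partner transcription factors, Tfap2c alone reached 1 FPKM. It encodes AP-2 gamma, which opens chromatin at many estrogen receptor sites in breast cells. Its FPKM was 3.97, 3.23 and 2.03 in DMSO, 6.28, 5.77 and 4.21 in E2, and 3.67, 3.72 and 2.77 in 4OHT. All E2 libraries lay above all others, and E2 was 1.58, 1.79 and 2.08 times DMSO in the pairs. The log2 difference was 0.67, with a standard error of 0.202 without and 0.0757 with the block (limma adjusted p = 0.300 and 0.00452). The blocked call held in all 9 fits with 1 library left out. Against 4OHT the log2 difference was 0.54 (adjusted p = 0.398 and 0.0112), and that blocked call was lost without 4OHT replicate 2 (0.0506). Without replicate 1 of each condition, Tfap2c did not pass in the fit without the block (0.313 against DMSO). In the blocked fit it passed against DMSO (0.0167) but not against 4OHT (0.0501).

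Foxa1, a pioneer factor that opens estrogen receptor sites in breast cells, and the GATA factor Gata6 were listed at 0 in all 9 libraries, and Tfap2a did not exceed 0.0690 FPKM. These 3 genes were not tested. Since the files hold no counts, no limit of detection is given for them.

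**Figure D2:**
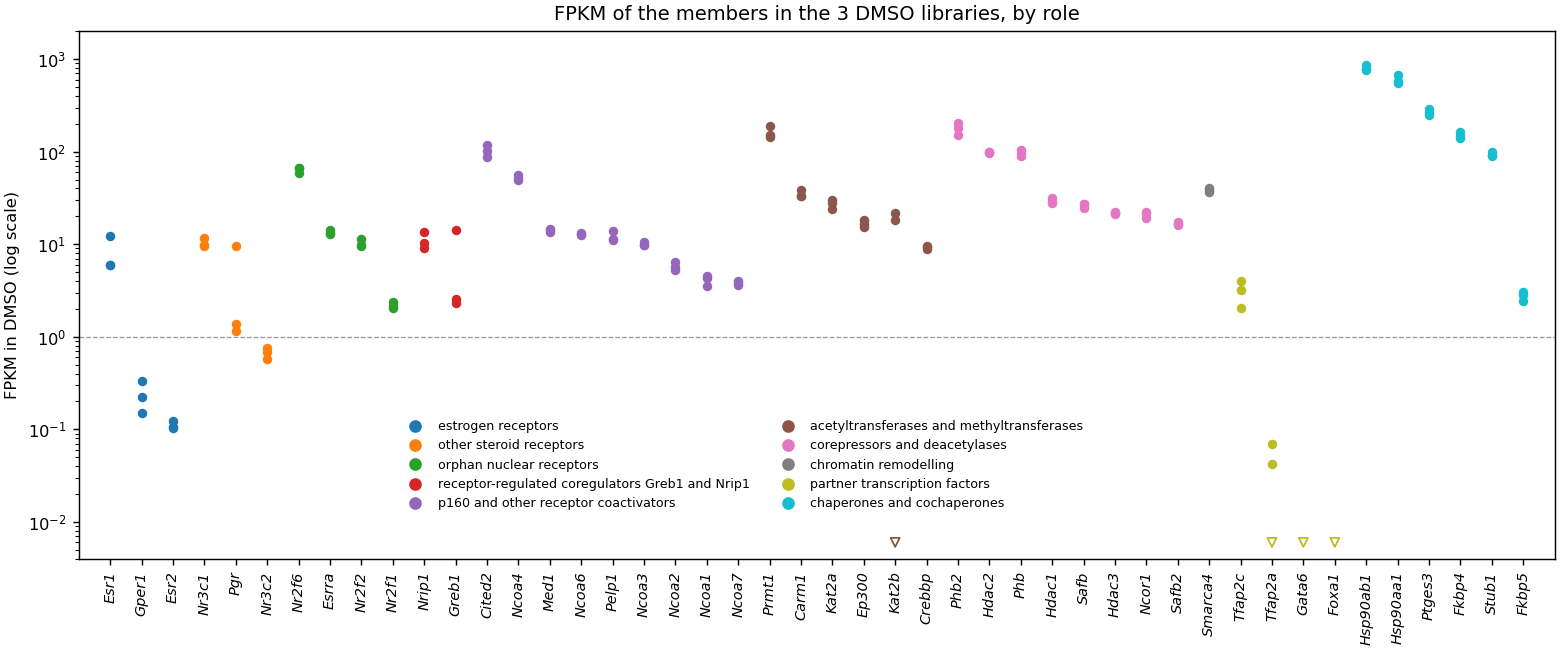
FPKM (log axis) of all 46 members in the 3 DMSO libraries, 1 point per library, coloured by role, with 1 FPKM as a dashed line and open triangles for values under the axis, all of them listed at 0. The chaperones Hsp90ab1 and Hsp90aa1 are highest, and Esr2, Gper1, Nr3c2, Tfap2a, Gata6 and Foxa1 lie below 1 FPKM.

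The 3 most abundant members were chaperones or cochaperones. Hsp90ab1 and Hsp90aa1, the constitutive and the inducible cytosolic Hsp90, had mean FPKM of 797 ± 56.8 and 599 ± 65.2 in DMSO (SD, n = 3), above 99.2% and 98.8% of the rows tested. The cochaperone p23, encoded by Ptges3, was at 267 ± 21.4 and the immunophilin Fkbp4 at 151 ± 12.2 FPKM. Stub1, a ubiquitin ligase that binds Hsp90 clients, was at 93.7 ± 4.77, and Fkbp5, the immunophilin known to be induced by glucocorticoid, progestin and androgen receptors, was at 2.74 ± 0.311 FPKM. Fkbp5 lay between 2.25 and 3.11 FPKM in E2 and between 2.17 and 2.91 in 4OHT, overlapping DMSO.

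Of the 6 chaperones, Fkbp4 alone passed in the fits of the deposited values of all 9 libraries with zeros kept, for E2 versus 4OHT with the block. Its FPKM was 140, 165 and 149 in DMSO, 137, 138 and 142 in E2, and 155, 170 and 154 in 4OHT. The E2 libraries lay below the 4OHT libraries and overlapped DMSO. The log2 difference between E2 and 4OHT was -0.19 (adjusted p = 0.376 without and 0.0428 with the block), and it passed in 0 of the 9 blocked fits with 1 library left out, where it ran up to 0.158. For Hsp90aa1 and Hsp90ab1 the log2 differences between E2 and DMSO were -0.11 and -0.07, with adjusted p of 0.133 and 0.139 in the blocked fit. With upper-quartile scaling or equal FPKM totals in the blocked fit both passed as lower with E2. Between E2 and 4OHT the log2 difference of Hsp90aa1 was -0.15, with a limma adjusted p of 0.0527 in the blocked fit. That difference passed with the block without E2 replicate 1 (0.0457) and with exact zeros as missing (0.0388).

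The orphan receptors were led by Nr2f6, a COUP-TF relative that represses transcription. It was at 58.7, 66.0 and 66.0 FPKM in DMSO, 60.0, 62.5 and 63.3 in E2, and 73.0, 70.7 and 70.4 in 4OHT. All 4OHT libraries lay above all others. The log2 difference between E2 and 4OHT was -0.20 (adjusted p = 0.294 without and 0.0403 with the block) and passed in 1 of the 9 blocked fits with 1 library left out, that without DMSO replicate 1. Between 4OHT and DMSO it was 0.17 (adjusted p = 1.00 and 0.376), with a blocked interval from 0.05 to 0.28. Esrra, an estrogen-related receptor of energy metabolism, lay between 12.9 and 15.5 FPKM, Nr2f2 between 9.20 and 11.4, and Nr2f1 between 1.81 and 2.35. These 3 did not pass in any contrast without or with the block.

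The coactivators of the p160 family that estrogen receptors recruit first, Ncoa1, Ncoa2 and Ncoa3, were expressed at 4.11 ± 0.493, 5.78 ± 0.616 and 10.1 ± 0.529 FPKM in DMSO (SD, n = 3). Their log2 differences between E2 and DMSO were 0.06, 0.02 and -0.01, and between 4OHT and DMSO -0.05, -0.05 and -0.07. None of these passed. In the blocked fit the intervals of the E2 differences reached from -0.05 to 0.16 for Ncoa1, from -0.13 to 0.17 for Ncoa2 and from -0.11 to 0.09 for Ncoa3. Ncoa4, which also carries ferritin to lysosomes, was at 52.3 ± 3.23 FPKM in DMSO. Ncoa6, Ncoa7, the mediator subunit Med1 and the receptor scaffold Pelp1 lay between 3.42 and 14.6 FPKM over the 9 libraries. In the fits of the deposited values they did not pass in any contrast, without or with the block.

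Cited2, a transactivator that binds the acetyltransferases p300 and CBP, was the most abundant coactivator. It was at 88.6, 103 and 119 FPKM in DMSO, 76.4, 93.3 and 110 in E2, and 99.1, 111 and 123 in 4OHT. In every pair E2 was the lowest and 4OHT the highest, at 0.863, 0.908 and 0.918 times DMSO with E2 and 1.12, 1.08 and 1.03 times with 4OHT, although the groups overlapped. The log2 difference between E2 and 4OHT was -0.26 (adjusted p = 0.505 without and 0.0137 with the block). The blocked call was lost without 4OHT replicate 1 (0.0671) or 4OHT replicate 2 (0.0603). Between E2 and DMSO it was -0.16 and did not pass (adjusted p = 0.737 and 0.0514).

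**Figure D3:**
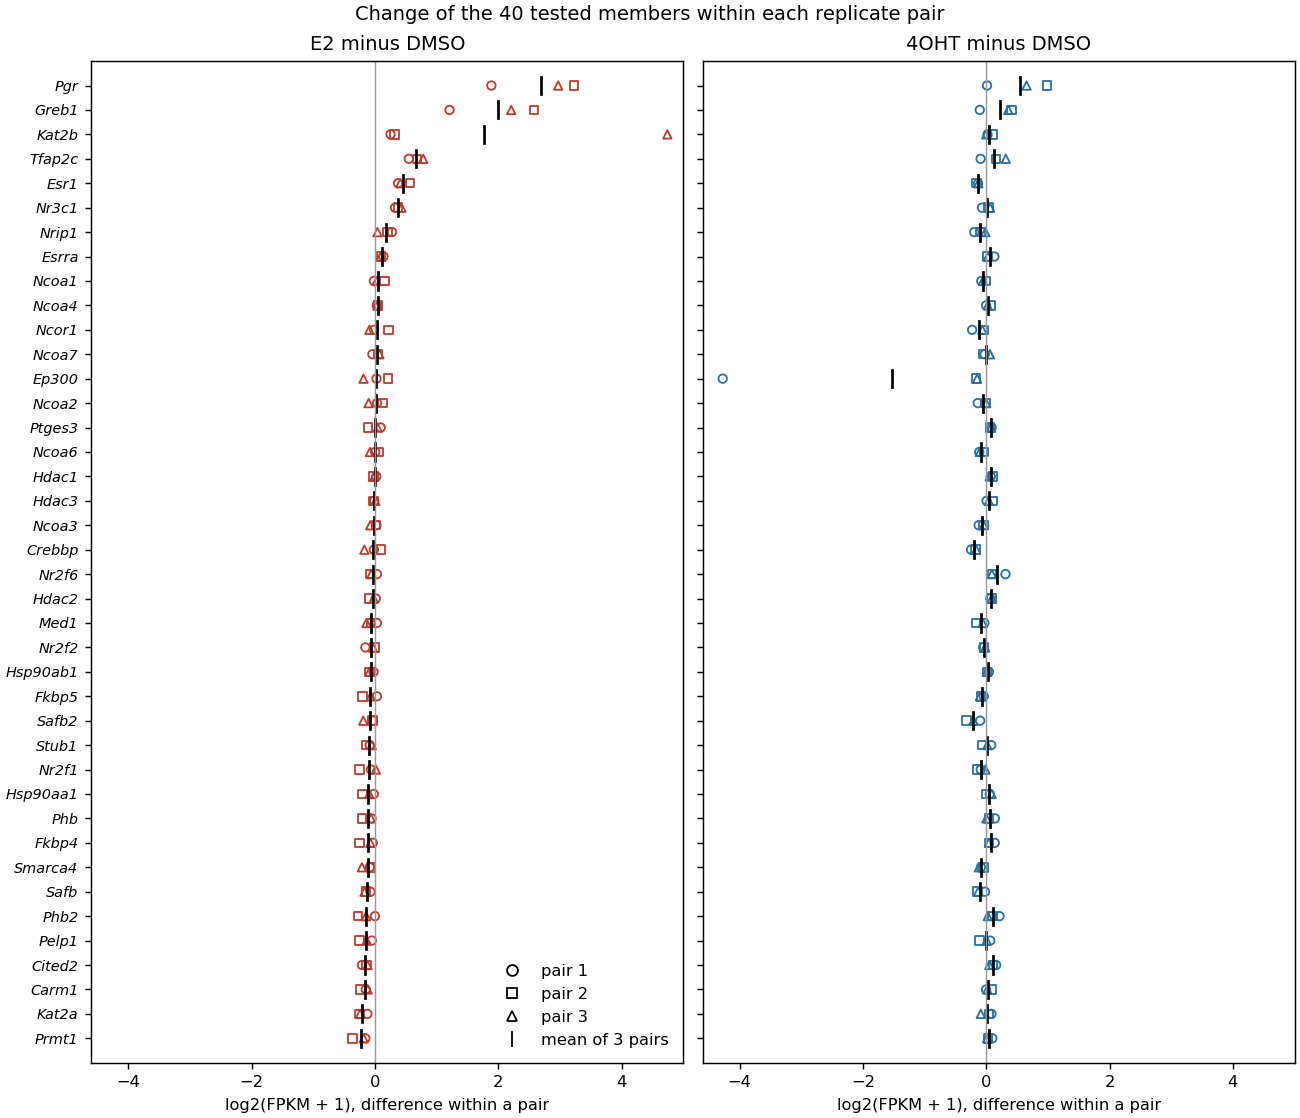
Difference in log2(FPKM + 1) between E2 and DMSO (left) and between 4OHT and DMSO (right) in each of the 3 replicate pairs, 1 row per tested member, with the mean of the pairs as a black bar. Pgr and Greb1 lie far to the right with E2. The isolated points of Kat2b and Ep300 are pairs in which 1 library was listed at 0.

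Of the acetyltransferases and methyltransferases, Kat2a, Carm1 and Prmt1 were lower with E2 than with DMSO in the blocked fit. Kat2a, the acetyltransferase GCN5, was at 24.1, 30.2 and 27.7 FPKM in DMSO, 22.1, 25.2 and 23.3 in E2, and 25.6, 31.3 and 26.0 in 4OHT. Carm1, which methylates histone H3 and the p160 coactivators, was at 33.0, 38.9 and 33.5 FPKM in DMSO, 29.7, 32.9 and 30.8 in E2, and 32.9, 41.2 and 33.9 in 4OHT. Prmt1, the main arginine methyltransferase of many cells, was at 145, 188 and 150 FPKM in DMSO, 130, 146 and 132 in E2, and 155, 191 and 152 in 4OHT. For all 3 genes E2 was the lowest of its replicate number, and replicate 2 was the highest in each condition.

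The differences of these enzymes were small. E2 was 0.915, 0.834 and 0.841 times DMSO in the pairs for Kat2a, 0.899, 0.848 and 0.919 for Carm1, and 0.896, 0.776 and 0.880 for Prmt1. The log2 differences were -0.21, -0.17 and -0.23, with adjusted p of 0.536, 0.599 and 0.547 without the block and 0.0310, 0.0450 and 0.0263 with it. They passed in 3, 1 and 4 of the 9 blocked fits that left out 1 library, and in none of these fits without the block. The only pass of Carm1 was without 4OHT replicate 2 (0.0414), a library outside this contrast. Kat2a passed without DMSO replicate 1, 4OHT replicate 2 or 4OHT replicate 3. Prmt1 passed without these same libraries or without E2 replicate 2. The values ran up to 0.135 for Kat2a without DMSO replicate 3, and to 0.157 for Carm1 and 0.113 for Prmt1 without DMSO replicate 2. Without replicate 1 of each condition the blocked adjusted p was 0.0828 for Kat2a, 0.148 for Carm1 and 0.0934 for Prmt1.

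Against 4OHT, the log2 differences were -0.22 for Kat2a, -0.20 for Carm1 and -0.28 for Prmt1, with adjusted p of 0.0278, 0.0289 and 0.0182 with the block and 0.453, 0.468 and 0.435 without it. Prmt1 passed in 7 of the 9 blocked fits with 1 library left out, failing without 4OHT replicate 1 (0.0954) or 4OHT replicate 2 (0.0798). Kat2a passed in 4 and Carm1 in 1 of them, that of Carm1 being the fit without DMSO replicate 1 (0.0479), a library outside this contrast. Between 4OHT and DMSO the log2 differences were 0.01, 0.03 and 0.05, and none passed.

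**Figure D4:**
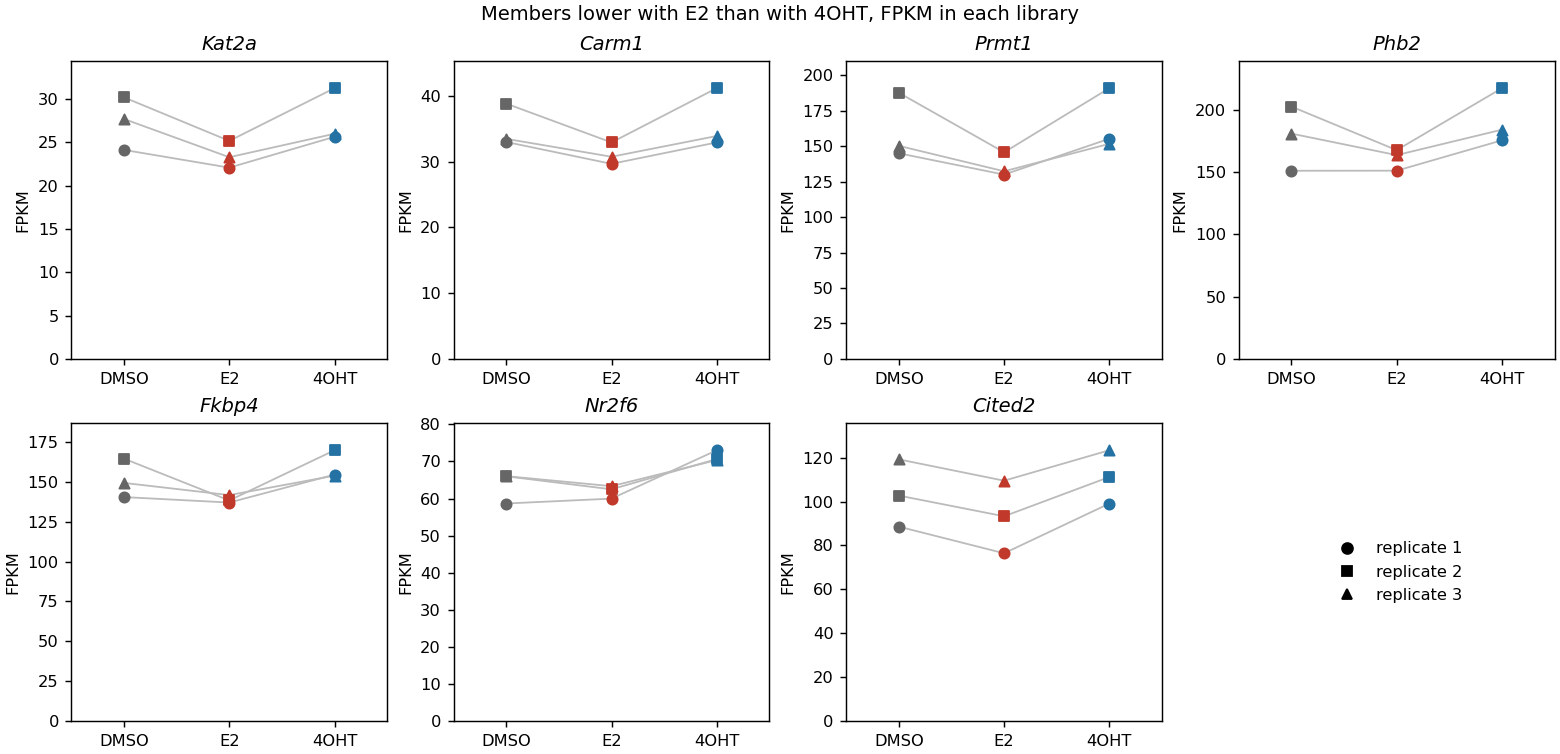
FPKM of the 7 members that were lower with E2 than with 4OHT in the blocked fit, in each library, with axes from 0, grey lines joining the libraries of 1 replicate number and a marker shape per replicate. In each panel all 3 replicates are lower with E2 than with 4OHT.

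The acetyltransferases p300, CBP and PCAF did not pass in either fit. Kat2b, which encodes PCAF, was at 21.7, 18.5 and 0 FPKM in DMSO, 26.1, 23.3 and 25.8 in E2, and 22.1, 19.9 and 0 in 4OHT. The 2 zeros stood in replicate 3 of DMSO and of 4OHT, in a gene at 18.5 to 26.1 FPKM in the remaining libraries. In the other two pairs E2 was 1.20 and 1.26 times DMSO. With the zeros kept, the log2 difference from DMSO was 1.77, with a standard error of 1.49 without and 0.988 with the block. It did not pass (limma adjusted p = 0.695 and 0.265). With exact zeros as missing and the block it was 0.29 with an adjusted p of 0.0112, a fit in which DMSO and 4OHT had 2 libraries each for this gene.

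Ep300, which encodes p300, was at 18.3, 15.3 and 16.4 FPKM in DMSO, 18.7, 17.9 and 14.3 in E2, and 0, 13.6 and 14.7 in 4OHT. The zero of 4OHT replicate 1 set the log2 difference from DMSO to -1.53. With that value as missing and the block it was -0.15 (adjusted p = 0.457). Crebbp, which encodes CBP, was at 9.24 ± 0.373 FPKM in DMSO, 9.05 ± 1.20 in E2 and 7.93 ± 0.213 in 4OHT (SD, n = 3). Its 4OHT libraries lay below all DMSO libraries, and the log2 difference of -0.20 did not pass (adjusted p = 1.00 and 0.376).

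Of the corepressors and deacetylases, Phb2 alone passed in the fits of the deposited values of all 9 libraries without or with the block, zeros kept. It encodes prohibitin 2, a mitochondrial scaffold also described as a repressor of estrogen receptor activity. Its FPKM was 151, 203 and 181 in DMSO, 151, 168 and 164 in E2, and 176, 217 and 184 in 4OHT. The E2 libraries lay below the 4OHT libraries and overlapped DMSO. Between E2 and 4OHT the log2 difference was -0.25 (adjusted p = 0.454 without and 0.0376 with the block), and it passed in 2 of the 9 blocked fits with 1 library left out, those without DMSO replicate 1 or E2 replicate 1. Its partner Phb was at 96.4 ± 7.80 FPKM in DMSO, 89.2 ± 2.83 in E2 and 101 ± 9.46 in 4OHT.

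The deacetylases Hdac1, Hdac2 and Hdac3 were at 29.5 ± 1.73, 97.9 ± 2.06 and 21.8 ± 0.437 FPKM in DMSO (SD, n = 3). The corepressor Ncor1 was at 21.0 ± 1.43, and the scaffold attachment factors Safb and Safb2 were at 26.4 ± 1.57 and 16.7 ± 0.684. The remodelling ATPase Smarca4 was at 38.3 ± 1.98 FPKM. None of these 7 passed in the fits of the deposited values of all 9 libraries with zeros kept, without or with the block. Safb2 was below DMSO in each 4OHT pair (log2 difference -0.21, adjusted p = 1.00 and 0.376). Hdac2 was lower with E2 than with 4OHT in each pair (log2 difference -0.12, adjusted p = 0.398 and 0.0620).

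The number of members called lower depended on the scaling. Over all rows the share of blocked E2 calls that were higher was 69.2% as deposited, and 49.8% both after upper-quartile scaling and after scaling to equal FPKM totals. Among the members, the blocked E2 calls moved from 5 higher and 3 lower to 5 higher and 10 lower under each of these scalings, and the 5 higher genes were the same. That was 12.5% and 25% of the members, beside 8.89% higher and 8.96% lower of all rows with upper quartiles and 8.97% and 9.03% with equal totals. Lower under both scalings were Kat2a, Carm1, Prmt1, Cited2, Safb, Fkbp4, Hsp90aa1 and Hsp90ab1. Pelp1 and Smarca4 were lower with upper quartiles only, and Phb and Phb2 with equal totals only. For E2 versus 4OHT the share of calls that were higher was 53.2% as deposited, 48.1% with upper quartiles and 60.6% with equal totals. With upper quartiles, 6 members were higher and 11 lower (15% and 27.5%, beside 8.92% and 9.65% of all rows). With equal totals, 6 were higher and 7 lower (15% and 17.5%, beside 10.8% and 7.04%). With exact zeros as missing and the block, 11 members passed for E2 against DMSO, 0 for 4OHT against DMSO and 16 for E2 against 4OHT, beside 18.7%, 0.194% and 21.8% of all rows. The members added in that fit for E2 versus DMSO were Kat2b as higher and Cited2 and Safb as lower.

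Related genes outside the 46 were counted from lists, beside the shares of all rows given above for the blocked fit (10.4% higher and 4.63% lower against DMSO, 8.63% and 7.6% against 4OHT). Of 39 other nuclear receptors, 19 were expressed enough to be tested. With the block, Rara, a retinoic acid receptor, was higher with E2 than with DMSO (log2 difference 0.24, adjusted p = 0.0106), and none was lower (5.26% and 0% of the list). Against 4OHT, Nr6a1 (0.32), Vdr (0.31) and Rara (0.16) were higher with E2 (15.8%) and Rxra (-0.19) and Pparg (-0.16) were lower (10.5%). Of 26 other chaperones and cochaperones, 25 were tested. Bag1, an Hsp70 cochaperone, was higher with E2 than with DMSO in the blocked fit (log2 difference 0.41, adjusted p = 0.0036), and Ppid, the cyclophilin of receptor complexes, was lower (-0.17, adjusted p = 0.0329), each 4% of the list. Against 4OHT 1 of the list was higher (4%), again Bag1, and 5 were lower (20%), led by Ppp5c (-0.26), Trap1 (-0.17) and Ppid (-0.17).

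Of 62 other coregulators and chromatin partners, 59 were tested. With the block 5 were higher with E2 than with DMSO (8.47%), among them the AP-1 subunit Fos (log2 difference 1.28) and Xbp1 (0.52), and 1 was lower (1.69%), the NuRD subunit Mta1 (-0.18). Fos was the only gene of these 3 lists that also passed without the block (adjusted p = 0.0422). Against 4OHT 8 were higher (13.6%), among them Fos and Xbp1 again, and 3 were lower (5.08%), Mta1 (-0.23), Hdac5 (-0.29) and Smarcb1 (-0.14). No gene of the 3 lists passed for 4OHT versus DMSO, without or with the block. The lists' median log2 differences between E2 and DMSO were 0.04, 0.02 and -0.02, beside -0.0027 over all rows tested.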

How the data were processed

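RNA was sequenced from 9 libraries of FVB MOE cells, 3 per condition, and conditions and replicate numbers came from the labels. After trimming, the authors aligned to mm10 and deposited FPKM for known genes. The submitters' processing notes name TopHat2 2.0.8b and Cuffdiff 2.1.1. Any further scaling of the FPKM across libraries is not given in the sources used here. Between 11037 and 11175 rows per library had at least 1 FPKM, the FPKM of a library summed to between 522517 and 588640, and the files hold no read counts. Read totals that the study gives were not used here. Rows with repeated symbols (362) or joined names (293) were kept as they stood.

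Rows at 1 FPKM or more in 3 or more libraries (11339) entered limma 3.58.1 (R 4.3.3) with a trend, as log2 of FPKM plus a pseudocount of 1. They were tested in 1 fit of all 9 libraries with two-sided moderated tests. The tests had also been run on simulated data without exact zeros. The changes put into those data were larger than the changes of most members called here. The simulation therefore does not measure the error rate of these calls. Exact permutation of 3 against 3 libraries cannot go below 0.1 and was not used. Same-numbered libraries' deviations from the condition means correlated at 0.0528 to 0.293 over all tested rows, and at 0.523 to 0.828 over the 11094 of them without an exact 0. Deviations from a condition's mean cancel out over its replicates. The positive values therefore mean that libraries of different numbers deviated in opposite directions on average. They do not say what the libraries of the same number shared. The replicate numbers of the labels were taken to pair the libraries, although the study's methods name no block. The blocked values are given beside the unblocked ones. The results of both fits were known when the pairing was chosen. A printed adjusted p of 1.00 is rounded.

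The members and lists were chosen with earlier results of these data known. Values in every library are given for the estrogen receptors, Pgr, Greb1 and Nrip1, for members past the threshold in any contrast without or with the block, and for members listed at exactly 0 beside expressed libraries. From the lists of other nuclear receptors, chaperones and coregulators, at most 3 genes per direction and contrast are named, those with the smallest p. Cell type markers were named without that limit. Gene coordinates came from the GENCODE annotation of GRCm38, and upstream sequences from RefSeq on GRCm38.p6, with Python 3.11.15. Alternatives were a pseudocount of 0.1, no filter, upper-quartile scaling, equal FPKM totals, only the 6 libraries compared, the replicate block, exact zeros as missing, libraries left out and a threshold of 0.01. The leave-one-out, equal-total and pseudocount settings of the blocked fit were added after the data were seen.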

Additional observations from a re-analysis of the deposited data

How the results depend on the processing

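The counts of calls below are given for E2 versus DMSO and then E2 versus 4OHT over all rows tested, where the fit as deposited without a block gave 58 and 18 and no member passed. A pseudocount of 0.1 gave 48 and 10, no filter on low values 32 and 9, upper-quartile scaling 42 and 20, equal FPKM totals 33 and 20, the 6 compared libraries alone 8 and 7, exact zeros as missing 66 and 37, and a threshold of 0.01 gave 6 and 0. No member passed under these settings. Leaving out 1 library gave 8 to 50 and 0 to 23 rows and 0 members. Leaving out replicate 1 of all conditions gave 125 and 72 rows and 3 members in each contrast, Pgr, Nr3c1 and Greb1 against DMSO and Esr1, Pgr and Greb1 against 4OHT.

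With the replicate block the counts were 1702 and 1840 rows and 8 and 12 members. The block with upper-quartile scaling gave 2024 and 2106 rows and 15 and 17 members, with equal totals 2041 and 2026 rows and 15 and 13 members, with no filter 1392 and 1252 rows and 7 and 9 members, with a pseudocount of 0.1 1711 and 1806 rows and 8 and 12 members, and with exact zeros as missing 2118 and 2470 rows and 11 and 16 members. Without replicate 1 of all conditions it gave 542 and 234 rows and 5 and 4 members. Leaving out 1 library it gave 534 to 1328 and 272 to 1513 rows and 5 to 8 and 3 to 11 members. For 4OHT versus DMSO, where 0 rows passed, 3 passed with the 6 libraries alone, 22 with zeros as missing and the block, 4 without replicate 1 (with or without the block), and 0 to 6 with 1 library left out. Members passing in that contrast numbered 0 in all these fits. A further count took 1035 values under alternatives, from the tested members whose values are given in every library. It left out the blocked fits with 1 library removed. Of these values, 894 kept their side of the threshold and 141 passed only in the alternative. Among the 894, 46 changed sign while no larger than their standard error and never called. Since no member passed in the fit used as reference, this count could not show a lost call. The cause of these differences was not tested. FPKM without counts leave the counting error of weakly expressed members such as Esr2 and Gper1 unknown.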
